A study of Mus musculus with 9 samples.

Results

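Prostanoids and leukotrienes are short-lived lipid signals made from arachidonic acid, and 10 genes for the enzymes that make or break them were followed in macrophages of the mouse liver. They were chosen by name among the 24312 genes of the expression table, with earlier results of these data known. The set holds the cyclooxygenases Ptgs1 and Ptgs2 and the prostanoid synthases Ptgis, Hpgds and Ptges. It also holds the prostaglandin dehydrogenase Hpgd and the leukotriene genes Alox5, Alox5ap, Lta4h and Ltc4s. RNA was sequenced from Ly6C-low F4/80-positive cells sorted from wild-type (WT) C57BL/6J livers. Mice had received CDA-HFD, a choline-deficient high-fat diet with defined amino acids that leads to steatohepatitis and fibrosis, for 7 weeks (7w) or 10 weeks (10w), or a normal diet (ND). CDA-HFD was started in males of 6 to 12 weeks of age, and the 3 groups held 3 libraries each, described as separate animals. The sex of the ND mice is not given in the sources used here, and for age the methods give the same range for C57BL/6J mice as bought. No allele, Cre driver or drug was used in any of them. CDA-HFD lacks choline, supplies defined amino acids with a set share of methionine and is high in fat. These features of the feeding cannot be told apart.

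Cyclooxygenases turn arachidonic acid into prostaglandin H2, which separate synthases convert into prostacyclin, prostaglandin D2, prostaglandin E2 or thromboxane. In the other branch, 5-lipoxygenase and its helper protein make leukotriene A4, from which Lta4h forms leukotriene B4, an attractant of neutrophils, and Ltc4s forms leukotriene C4, the parent of the cysteinyl leukotrienes. Kupffer cells, the resident macrophages of the liver, are a known source of both kinds of mediator.

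Levels are fragments per kilobase of transcript at a common library size (FPKM), a unit per transcript length, so levels of different genes can be set side by side. Each library rested on an estimated 5455625 to 6188218 reads, and 10990 to 11273 genes reached 1 FPKM in it. Differences were tested with limma on log2(FPKM + 1) over 11783 genes that reached 1 FPKM in 3 or more libraries, and a gene was called at an adjusted p below 0.05. The macrophage genes Cd68 and Adgre1 (F4/80) stood at 283 to 313 FPKM and 190.5 to 265.0 FPKM over all 9 libraries and fit the label of the cells. Of 7 such genes, Adgre1, Csf1r and Mertk fell for both CDA-HFD groups together, Itgam rose and 3 were not called. Adgre1 averaged 196.7 FPKM at 7w, 197.5 FPKM at 10w and 258 FPKM in ND. For both CDA-HFD groups together, 12 of 12 Kupffer cell markers fell and 8 of 8 genes of lipid-associated macrophages rose. Among these, the study had already named Clec4f and Timd4 as lower and Trem2, Cd9 and Spp1 as higher in this experiment. Their outcome was known in advance, so the counts are no independent support. Of 8 tested monocyte markers 6 rose and 1, Plac8, fell. Over all tested genes 22.8% rose and 24.3% fell in this comparison, to which the later counts of marker genes also belong. The phagocytic receptor Timd4, a marker of resident Kupffer cells, averaged 13.2 ± 6.09 FPKM at 7w, 4.98 ± 2.96 FPKM at 10w and 202.8 ± 3.47 FPKM in ND (SD, n = 3 each). From such bulk samples alone, fewer cells of a type and less RNA per cell cannot be told apart. By flow cytometry, however, the study found resident Kupffer cells replaced by monocyte-derived macrophages under CDA-HFD and barely detectable by the earlier time. Its single-cell sequencing of floxed mice without Cre also found Kupffer cells to be rare after this diet. The part of this replacement of cells in the levels of the enzyme genes was not tested.

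The 2 cyclooxygenases moved in opposite directions. Ptgs1 (ENSMUSG00000047250.13, chr2:36230426-36252272, plus strand, GRCm38) encodes the constitutive enzyme COX-1 and stood at 93.5, 92.0 and 118 FPKM in the 7w libraries, 106, 110.1 and 124 FPKM in the 10w libraries, and 204, 210.5 and 215 FPKM in the ND libraries. All 6 CDA-HFD libraries lay below all ND libraries, at about the same distance at both times. Its log2 difference was −1.05 at 7w (SE 0.09, adjusted p = 3.93e-06 by limma) and −0.89 at 10w (SE 0.09, adjusted p = 1.58e-05). Duplicate reads had been removed, which sets an upper limit on FPKM, and Ptgs1 reached 58.1% to 59.7% of it in ND. With a correction for this limit the fall in both CDA-HFD groups together was larger, at −1.30 in place of −0.97 on the log2 scale. Ptgs1 is also among the genes of the Kupffer cell signature that the study scored.

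Ptgs2 (ENSMUSG00000032487.8, chr1:150100031-150108227, plus strand) encodes COX-2, the form that cells induce on stimulation. Its level was 26.4, 51.5 and 46.1 FPKM at 7w and 30.5, 21.2 and 12.1 FPKM at 10w, whereas the ND libraries listed it at 0.0431, 0 and 0 FPKM. The ND values stand for about 1 read in a single library, against an estimated 315 to 1254 reads in the CDA-HFD libraries. On the log2(FPKM + 1) scale the difference was 5.33 at 7w (SE 0.32, adjusted p = 1.10e-07 by limma) and 4.37 at 10w (SE 0.32, adjusted p = 6.50e-07), the 25th largest rise among the tested genes for both groups together. Because ND lies at or near 0, the size of the difference follows the pseudocount, and it was 7.97 for both groups together with a pseudocount of 0.1 and 2.75 with 5. Ptgs2 passed the filter on low values through its CDA-HFD libraries alone. Of 20 genes that cells switch on at once when stimulated or dissociated, 16 also rose for both groups together, against 22.8% of all tested genes. The summed level of the 20 was 2661 to 2901 FPKM at 7w, 2640 to 2742 FPKM at 10w and 1309 to 1701 FPKM in ND. The part of tissue dissociation in the level of Ptgs2 was not tested.

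The sequences upstream of both start sites are shown because their enzymes catalyse the same step and yet the transcripts moved apart. They cover the 250 bases before each annotated start, on the coding strand, and come from RefSeq (GRCm38.p6), at chr1:150099781-150100030 for Ptgs2 and chr2:36230176-36230425 for Ptgs1. Capitals mark matches to the motifs searched.
Ptgs2: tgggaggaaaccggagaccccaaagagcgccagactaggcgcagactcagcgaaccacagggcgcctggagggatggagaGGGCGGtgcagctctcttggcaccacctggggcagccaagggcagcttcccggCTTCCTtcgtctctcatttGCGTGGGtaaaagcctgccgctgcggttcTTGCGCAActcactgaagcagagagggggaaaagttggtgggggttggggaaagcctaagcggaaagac
Ptgs1: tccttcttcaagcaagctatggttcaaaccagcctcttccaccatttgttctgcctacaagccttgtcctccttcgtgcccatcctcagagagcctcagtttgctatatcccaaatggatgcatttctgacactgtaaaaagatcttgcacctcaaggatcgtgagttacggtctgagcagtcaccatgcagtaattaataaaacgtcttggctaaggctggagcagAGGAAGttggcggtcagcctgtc
On both strands, 8 motifs were searched in these bases and the 50 that follow: the TATA box TATAAA, the short cyclic AMP response element TGACGT, the E box CACGTG, the GC box GGGCGG, the PU.1 core AGGAAG, the C/EBP palindrome TTGCGCAA, the AP-1 site TGACTCA and the Egr site GCGTGGG. Ptgs2 held the GC box at bases 170 to 165 before the start, the PU.1 core at 117 to 112 (as its reverse complement), the Egr site at 98 to 92 and the C/EBP palindrome at 69 to 62. It also held the cyclic AMP element (as its reverse complement) at bases 13 to 18 after the start, which overlaps an E box at 17 to 22. Ptgs1 held only the PU.1 core, at 23 to 18 before the start. Of 32851 RefSeq promoters of this length, 35.7% held the GC box, 35.4% the PU.1 core, 7.51% the cyclic AMP element, 7.15% the E box, 5.04% the Egr site and 0.183% the C/EBP palindrome. The rarest of these motifs lay upstream of Ptgs2, but it is also the longest of those searched, which by itself makes matches rarer. GC content before the start was 61.6% for Ptgs2 and 48.0% for Ptgs1, against a median of 52.4% over all promoters. Among the members, 8 had a promoter entry, and Ptgis and Alox5ap had none. Ptges held the Egr site, at bases 165 to 159 before the start, and the GC box. Hpgd held the TATA box, the GC box and the PU.1 core. Hpgds and Ltc4s held the PU.1 core, and Alox5 the GC box. A match is a run of letters and was not tested as a bound site.

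Within each library, the share of Ptgs2 in the summed level of both cyclooxygenases was 22.0%, 35.9% and 28.0% at 7w, 22.4%, 16.2% and 8.91% at 10w, and 0.0211%, 0% and 0% in ND. Ptgs1 therefore remained the more abundant cyclooxygenase transcript in all 9 libraries. The log2 ratio of Ptgs2 to Ptgs1, which exists in ND only with a pseudocount, was higher by 5.82 in the 6 CDA-HFD libraries than in ND with 1 FPKM added to each level (two-sided exact permutation test, p = 0.0119, which is the lowest value 84 splits can give). The size of this difference followed the pseudocount, at 8.94 with 0.1 and 3.69 with 5. Ptgs2 lay above ND and Ptgs1 below it in all 6 CDA-HFD libraries. The permutation p was therefore fixed in advance and adds nothing to their separate results. The summed level of both was 119.9 to 165 FPKM at 7w, 131 to 136 FPKM at 10w and 204 to 215 FPKM in ND.

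Ptgis, the prostacyclin synthase, fell furthest of the members. This gene (ENSMUSG00000017969.13, chr2:167191805-167240604, minus strand) stood at 3.29, 0.450 and 1.70 FPKM in the 7w libraries and at 1.66, 0.987 and 1.37 FPKM in the 10w libraries, against 106, 88.4 and 91.3 FPKM in the ND libraries. No CDA-HFD library came near the ND range. The log2 difference was −5.23 at 7w (SE 0.33, adjusted p = 1.61e-07 by limma) and −5.37 at 10w (SE 0.33, adjusted p = 1.45e-07), and for both groups together it was the 5th largest fall of all tested genes. The levels rest on an estimated 4.91 to 34.3 reads per CDA-HFD library and 931 to 1185 reads per ND library. Noncoding genes on the opposite strand overlap Ptgis, and reads without strand cannot be told apart between them. Endothelial cells are the best-known source of prostacyclin, and among 12 sinusoidal endothelial markers 2 fell, 4 rose and 6 were not called. These counts are for both CDA-HFD groups together, where 24.3% of all tested genes fell and 22.8% rose. Stab2, an endothelial scavenger receptor, averaged 6.58 ± 2.70 FPKM at 7w, 7.93 ± 5.41 FPKM at 10w and 50.7 ± 2.50 FPKM in ND (SD, n = 3 each), whereas Clec4g, another endothelial marker, averaged 57.9 ± 20.9 FPKM at 7w, 56.6 ± 29.6 FPKM at 10w and 22.0 ± 7.49 FPKM in ND. The summed level of the 12 markers was 77.8 to 169.9 FPKM at 7w, 77.9 to 216 FPKM at 10w and 158 to 191 FPKM in ND, so the groups overlapped. The part of endothelial RNA in the level of Ptgis was not tested.

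Hpgds, the hematopoietic prostaglandin D synthase (ENSMUSG00000029919.5, chr6:65117293-65144908, minus strand), was modestly higher after CDA-HFD. The 7w libraries held 50.6, 41.6 and 56.0 FPKM, the 10w libraries 45.0, 35.9 and 28.9 FPKM, and the ND libraries 26.6, 24.4 and 28.6 FPKM. The lowest 10w library was almost level with the highest ND library, while the 7w libraries stood well apart. Hpgds rose at 7w, with a log2 difference of 0.87 (SE 0.16, adjusted p = 0.000779 by limma). At 10w the difference of 0.43 (SE 0.16, adjusted p = 0.0447) passed narrowly, and the call was lost when any single ND library was left out (adjusted p = 0.0549 to 0.129). It was also lost without 10w 1 (adjusted p = 0.178), without 10w 2 (0.0900) and without 7w 1 (0.0612).

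Ptges, the inducible prostaglandin E synthase that often works with COX-2 (ENSMUSG00000050737.13, chr2:30889471-30929863, minus strand), remained scarce. It was listed at 0.740, 4.50 and 0.255 FPKM at 7w, at 0.842, 1.97 and 1.18 FPKM at 10w, and at 0, 0 and 0.106 FPKM in ND. These values correspond to an estimated 4.99 to 88.8 reads in CDA-HFD libraries and at most 2.00 reads in ND. Every CDA-HFD library exceeded every ND library, and 7w 2 was far above the rest. Neither time alone passed the test (adjusted p = 0.0726 at 7w and 0.0783 at 10w by limma), and both groups together passed narrowly, at a log2 difference of 1.15 (SE 0.42, adjusted p = 0.0393). It no longer passed without ND 1 (0.101), ND 2 (0.0988), ND 3 (0.0781), 10w 2 (0.0747) or 10w 3 (0.0538). The calls at single times also turned on single libraries, as Ptges passed at 7w without 7w 3 (0.0229) and at 10w without 7w 2 (0.0204). The difference for both groups together was 3.27 with a pseudocount of 0.1 and 0.36 with 5, where it did not pass (adjusted p = 0.0853). Like Ptgs2, Ptges was tested only because its CDA-HFD libraries passed the filter, with 3 libraries at or above 1 FPKM.

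The makeup of the 3 synthase transcripts accordingly differed between diets. Ptgis made up 0.966% to 6.02% of their summed FPKM at 7w, 2.54% to 4.35% at 10w and 76.1% to 79.98% in ND. Hpgds made up 89.4% to 96.6% at 7w, 91.9% to 94.7% at 10w and 20.02% to 23.8% in ND. The sum of the 3 was 46.6 to 58.0 FPKM at 7w, 31.5 to 47.5 FPKM at 10w and 113 to 133 FPKM in ND.

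Hpgd, which inactivates prostaglandins by oxidising them (ENSMUSG00000031613.9, chr8:56294585-56321043, plus strand), fell in both groups but stayed abundant. Its level was 177, 155 and 175 FPKM at 7w, 169.8, 151 and 169.8 FPKM at 10w, and 249, 267 and 273 FPKM in ND. Diets did not overlap, and both CDA-HFD groups lay at the same level. The log2 difference was −0.64 at 7w (SE 0.06, adjusted p = 5.05e-06 by limma) and −0.68 at 10w (SE 0.06, adjusted p = 2.91e-06). Hpgd reached 72.9% to 74.6% of the upper limit in ND, and the correction for it gave −1.06 in place of −0.66 for both groups together. It too belongs to the Kupffer cell signature that the study scored.

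**Figure D1:**
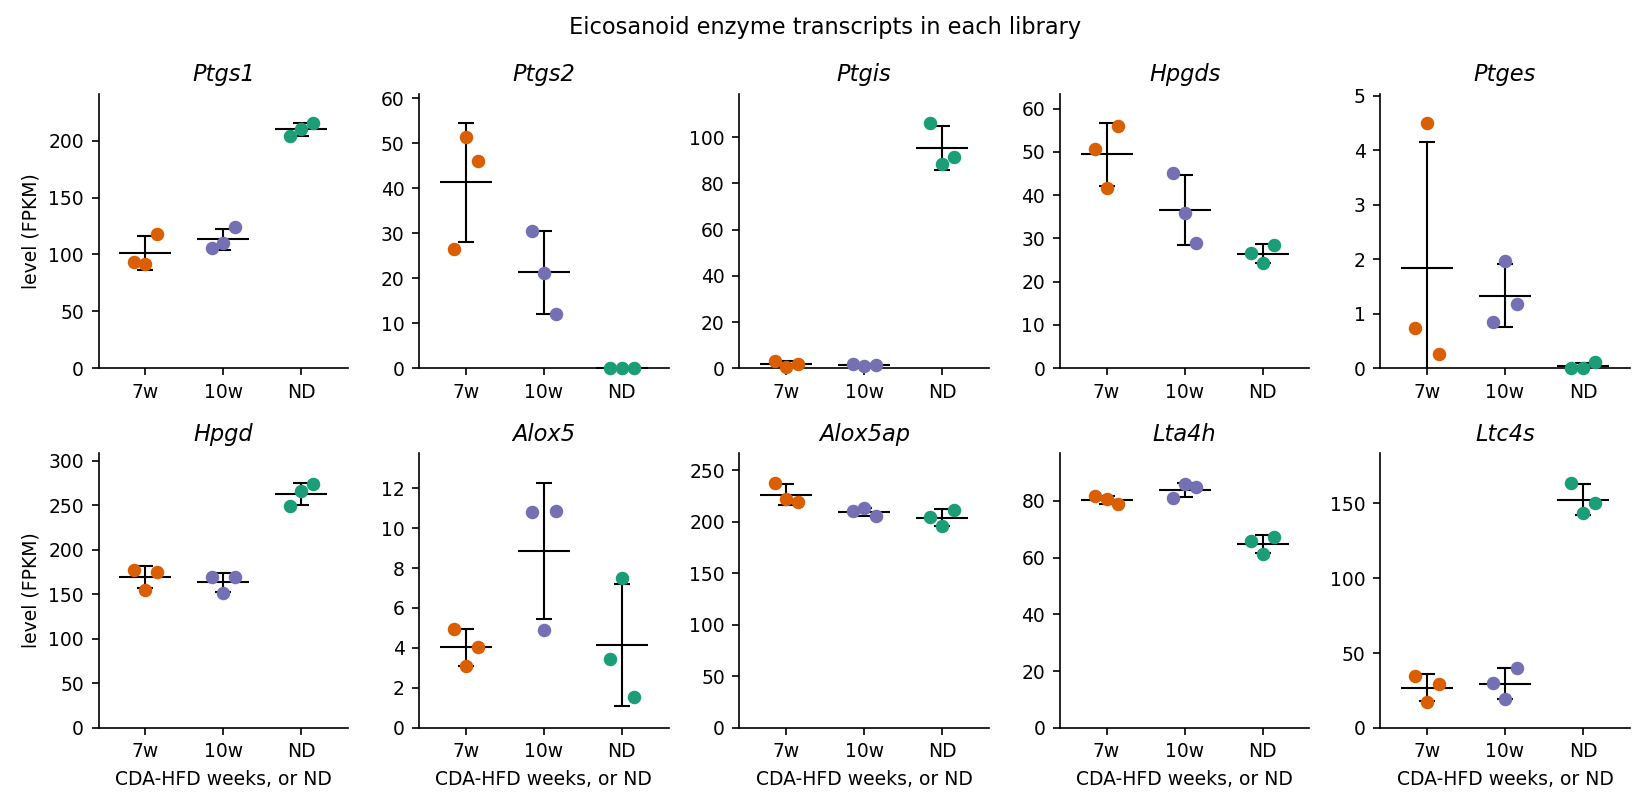
Level of each of the 10 enzyme genes in FPKM (linear axes from 0), with 1 point per library for CDA-HFD 7w, CDA-HFD 10w and ND and with the mean and SD of 3 libraries in black (bars below 0 are not drawn). Ptgis stood at 3.29 FPKM or less in all CDA-HFD libraries and at 88.4 FPKM or more in all ND libraries, and Ptgs2 showed the opposite order.

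In the leukotriene branch, of the genes for the first step Alox5 was not called at either time and Alox5ap rose slightly at 7w. Alox5 encodes 5-lipoxygenase (ENSMUSG00000025701.12, chr6:116410077-116461178, minus strand) and was low, at 4.92, 3.12 and 4.02 FPKM at 7w, 10.8, 4.92 and 10.9 FPKM at 10w, and 3.43, 7.48 and 1.53 FPKM in ND. All 3 groups overlapped. Alox5 did not pass at 7w (log2 difference 0.12, 95% interval −0.78 to 1.03, adjusted p = 0.838 by limma) or at 10w (1.04, 95% interval 0.14 to 1.95, unadjusted p = 0.0277, adjusted p = 0.0655), and the interval at 10w includes differences as large as that of Ptgs1. The high library ND 2 decided the second of these, since without it the difference at 10w was 1.49 (adjusted p = 0.0120 by limma). Without 10w 2 it was 1.37 (adjusted p = 0.0289), and with quantile normalization it was 1.13 (adjusted p = 0.0495). Neutrophils carry much Alox5, and of 5 tested neutrophil markers 2 rose, 1 fell and 2 were not called, with a summed level over the list of 136 to 191 FPKM at 7w, 137 to 276.5 FPKM at 10w and 98.5 to 194 FPKM in ND. These marker counts are for both CDA-HFD groups together, where 22.8% of all tested genes rose and 24.3% fell. At 10w alone, 2 of the markers rose (Retnlg and Mmp8), 1 fell (S100a9) and 2 were not called. Of all tested genes, 19.3% rose and 20.6% fell at 10w. Retnlg stood at 48.9, 26.4 and 165.6 FPKM at 10w and at 10.1, 0.444 and 0 FPKM in ND. The part of neutrophils in the level of Alox5 was not tested.

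Alox5ap, which presents arachidonic acid to 5-lipoxygenase (ENSMUSG00000060063.9, chr5:149264767-149288153, plus strand), was, per transcript length, the most abundant of the 10 after CDA-HFD. It stood at 238, 222 and 219 FPKM at 7w, 210.2, 213 and 205 FPKM at 10w, and 204, 196 and 212 FPKM in ND. In FPKM, the 7w libraries lay just above the ND libraries and the 10w libraries overlapped them. The log2 difference of 0.15 at 7w passed the test (SE 0.04, adjusted p = 0.00834 by limma), though not with quantile normalization (adjusted p = 0.0979) or without trend and robust (0.124), and 0.04 at 10w did not pass (adjusted p = 0.453). Alox5ap reached 62.0% to 65.0% of the upper limit at 7w, 62.4% to 65.0% at 10w and 54.1% to 59.8% in ND. With the correction for it, the difference was 0.25 at 7w (adjusted p = 0.00382), 0.135 at 10w (adjusted p = 0.0747) and 0.19 in place of 0.09 for both groups together (adjusted p = 0.00673).

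Downstream, the 2 enzymes that compete for leukotriene A4 diverged. Lta4h, the leukotriene A4 hydrolase (ENSMUSG00000015889.8, chr10:93453411-93484875, plus strand), held 81.7, 80.7 and 78.9 FPKM at 7w, 81.0, 85.9 and 84.8 FPKM at 10w, and 65.9, 61.3 and 67.5 FPKM in ND. Its rise was small but even across libraries, with a log2 difference of 0.31 at 7w (SE 0.06, adjusted p = 0.00118 by limma) and 0.37 at 10w (SE 0.06, adjusted p = 0.000356). Ltc4s, the leukotriene C4 synthase (ENSMUSG00000020377.15, chr11:50236461-50238616, minus strand), held 34.5, 17.2 and 29.2 FPKM at 7w, 29.7, 19.4 and 39.7 FPKM at 10w, and 164, 143 and 150.3 FPKM in ND. Ltc4s fell 5.70-fold at 7w (log2 difference −2.51, SE 0.30, adjusted p = 0.000228) and 5.21-fold at 10w (−2.38, SE 0.30, adjusted p = 0.000345), both on the log2(FPKM + 1) scale by limma. Diets were clearly separated for both genes. Ltc4s lies under an antisense gene, and reads of the pair cannot be told apart. Ltc4s reached 39.6% to 48.0% of the upper limit in ND, 4.92% to 9.42% at 7w and 5.68% to 12.2% at 10w. With all libraries kept, its log2 difference under the alternatives was −2.84 to −2.34 at 7w and −2.70 to −2.23 at 10w. The ratio of Ltc4s to Lta4h was 0.213 to 0.422 at 7w, 0.226 to 0.469 at 10w and 2.23 to 2.49 in ND. Mast cells are a classical source of Ltc4s, and of 10 mast cell and basophil markers 6 were listed at 0 in all libraries (Cpa3, Mcpt4, Cma1, Tpsb2, Tpsab1 and Fcer1a), with a summed level of 1.74 to 3.17 FPKM at 7w, 0.567 to 11.8 FPKM at 10w and 0.590 to 3.86 FPKM in ND.

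**Figure D2:**
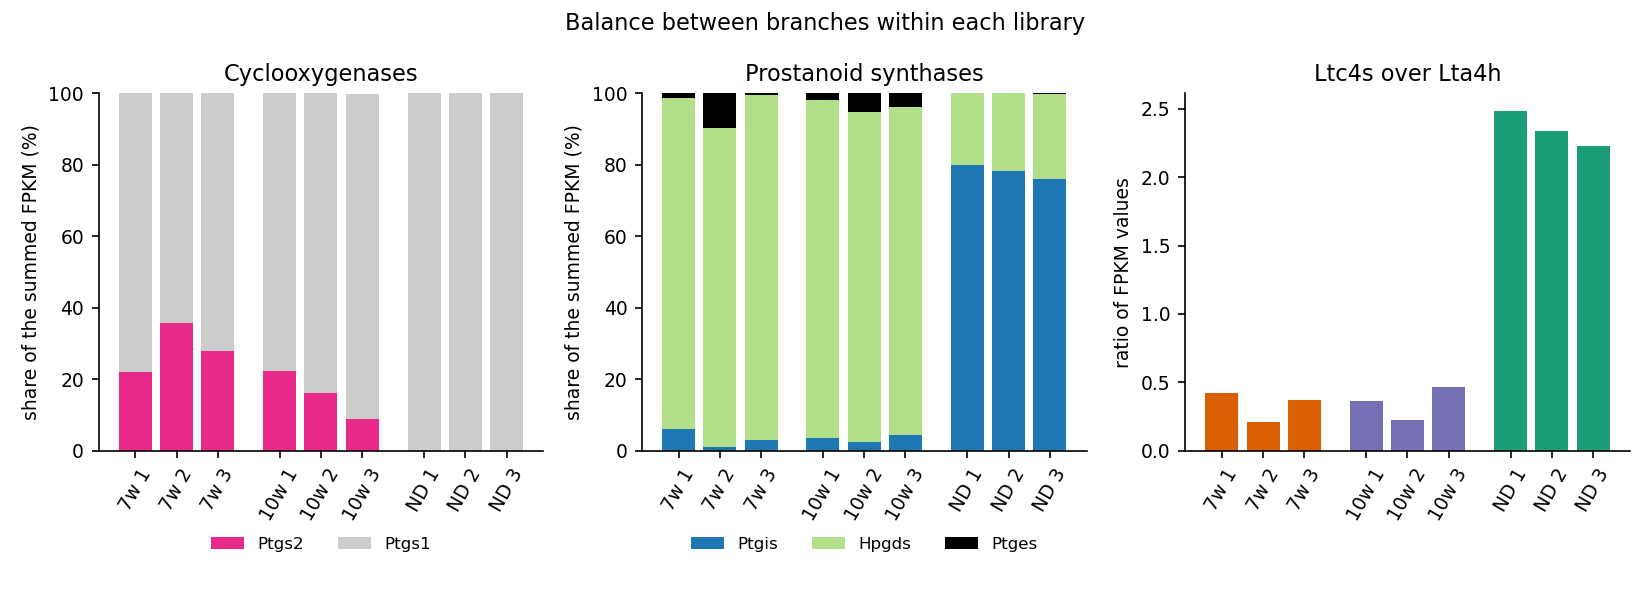
Balance between branches in each library: left, shares of Ptgs2 and Ptgs1 in their summed FPKM (%), centre, shares of Ptgis, Hpgds and Ptges in theirs (%), and right, the ratio of Ltc4s to Lta4h. Ptgis held 76.1% to 79.98% of the synthase sum in the 3 ND libraries and at most 6.02% in the 6 CDA-HFD libraries.

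Counted together, 4 members rose and 4 fell at 7w, a time at which 43.7% of all tested genes were called (21.3% higher and 22.4% lower). At 10w 3 rose and 4 fell, against 39.9% of all tested genes (19.3% higher and 20.6% lower). The 2 comparisons share the ND libraries. For both groups together 5 rose and 4 fell, where 47% of tested genes were called (22.8% higher and 24.3% lower). The 6 CDA-HFD libraries did not overlap ND in 8 members (4 higher and 4 lower), against 40.6% of tested genes (19.3% higher and 21.3% lower). Alox5ap was the fifth riser, at a log2 difference of 0.09 (SE 0.03, adjusted p = 0.0368 by limma), and its call was lost without ND 1 (0.0856), ND 2 (0.184), 7w 1 (0.0641), 10w 1 (0.0602) or 10w 2 (0.0696) and with the replicate number as a block (0.0517). The median log2 difference of the members was 0.22, beside −0.03 over all tested genes. Ptgs2 and Ptges are among the risers and were tested only through their CDA-HFD libraries. These counts and the median are therefore no measure of the members as a group. Two-sided exact permutation tests of 6 against 3 libraries reached the smallest possible p of 0.0119 for Ptgis, Ptgs1, Ptgs2, Hpgd, Ltc4s and Lta4h, and gave 0.0357 for Hpgds, 0.0476 for Ptges, 0.119 for Alox5ap and 0.298 for Alox5, each unadjusted among 10 such tests.

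Between the 2 times of feeding no member was called (0 of 10 by limma), and 0.127% of all tested genes were (0.102% higher and 0.0255% lower at 10w). At an unadjusted p below 0.05 there were 4, namely Ptgs2, Hpgds, Alox5 and Alox5ap. Ptgs2 was lower at 10w than at 7w by a log2 difference of −0.96 (95% interval −1.66 to −0.26, adjusted p = 0.190 by limma), and 10w 1 lay above 7w 1. For Hpgds the difference was −0.43 (95% interval −0.78 to −0.09, adjusted p = 0.211), for Alox5 0.92 (0.01 to 1.83, adjusted p = 0.315) and for Alox5ap −0.11 (−0.19 to −0.02, adjusted p = 0.207). The intervals for Ptgs1 (−0.03 to 0.36), Hpgd (−0.18 to 0.08) and Lta4h (−0.07 to 0.19) were narrow, whereas those for Ptgis (−0.86 to 0.58), Ltc4s (−0.55 to 0.81) and Ptges (−1.05 to 1.05) leave room for changes of considerable size.

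**Figure D3:**
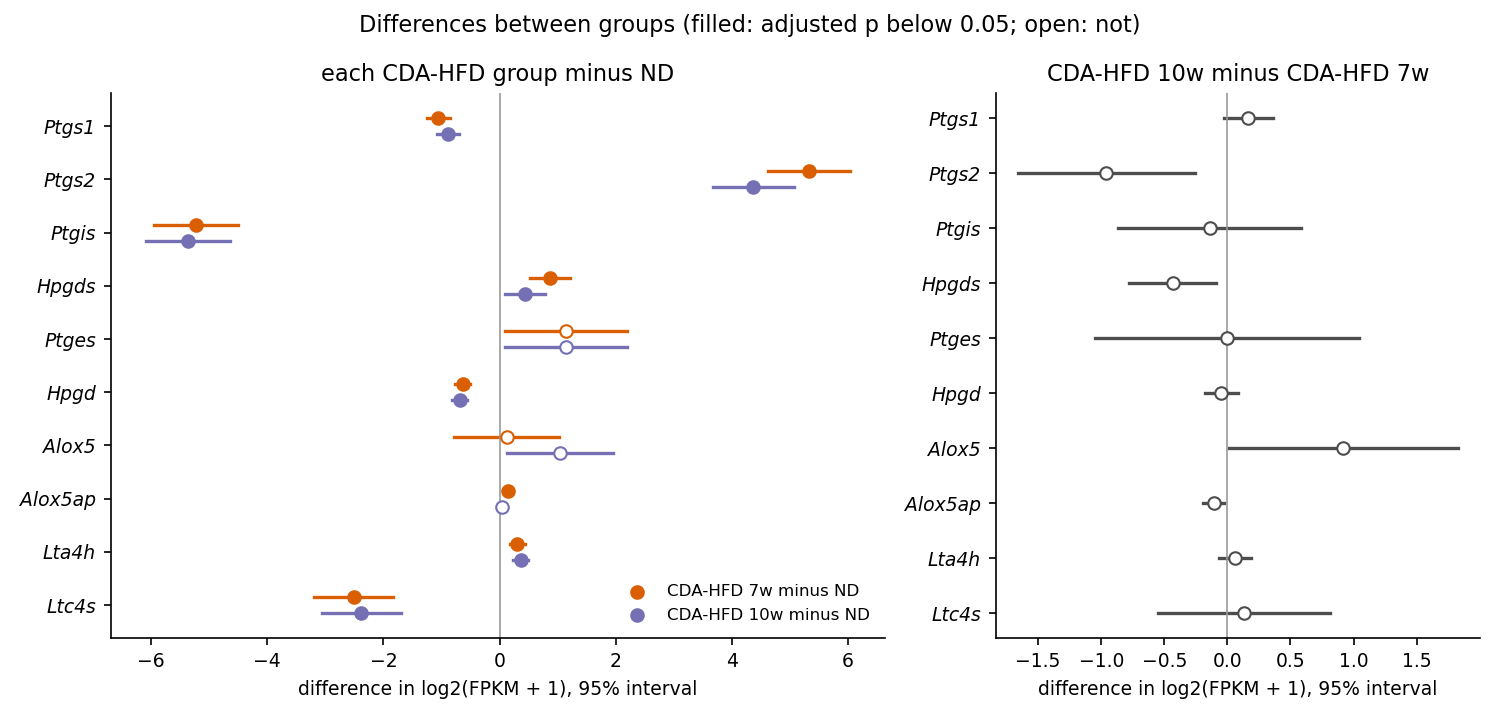
Difference in log2(FPKM + 1) with its 95% interval from limma for each gene, at left for CDA-HFD 7w and CDA-HFD 10w minus ND and at right for CDA-HFD 10w minus CDA-HFD 7w. Filled points passed an adjusted p of 0.05, which 8 members did at 7w and 7 at 10w, and none between the 2 times. Of all tested genes, 43.7% passed at 7w, 39.9% at 10w and 0.127% between the times.

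Other genes of the pathway were taken from 8 lists by function and are described with all CDA-HFD libraries against ND, a comparison in which 47% of all tested genes were called (22.8% higher and 24.3% lower, median log2 difference −0.03). Of 18 genes that release or recycle arachidonic acid 11 were tested, of which 2 rose and 6 fell (median log2 difference −0.55). The cytosolic phospholipase A2 Pla2g4a, the main supplier of arachidonic acid, averaged 63.5 ± 8.56 FPKM at 7w, 61.6 ± 2.37 FPKM at 10w and 91.9 ± 4.97 FPKM in ND (SD, n = 3 each). The largest falls in this list were those of the phospholipases Pla2g12a (log2 difference −2.04), Pla2g6 (−1.44) and Pla2g16 (−1.07) and of the diacylglycerol lipase Dagla (−1.39). Pla2g4a was named after its values were seen.

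Among 11 tested genes of other prostanoid synthases and reductases 5 rose and 4 fell (median 0.10), where 47% of all tested genes were called in either direction. Both large rises were reductases. Ptgr1, which inactivates leukotriene B4 and 15-keto prostaglandins, held 65.3, 59.6 and 49.8 FPKM at 7w, 46.4, 45.9 and 38.9 FPKM at 10w and 2.41, 4.17 and 3.56 FPKM in ND (log2 difference 3.57, SE 0.15, adjusted p = 3.37e-09 by limma). Akr1b8, an aldo-keto reductase, averaged 82.3 ± 17.0 FPKM at 7w, 64.8 ± 13.1 FPKM at 10w and 2.37 ± 2.81 FPKM in ND (SD, n = 3 each), with a log2 difference of 4.83. Both transporters tested fell, and the prostaglandin importer Slco2a1, which feeds breakdown inside the cell, stood at 0.903, 0 and 0.965 FPKM at 7w, 0.799, 0.222 and 1.87 FPKM at 10w and 10.8, 7.66 and 9.83 FPKM in ND (log2 difference −2.61, SE 0.33, adjusted p = 4.12e-05).

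Of 12 genes listed as prostanoid receptors 7 were tested, and 4 rose and 2 fell (median 1.11). Among the risers, Ptgfrn encodes a regulator of the prostaglandin F receptor and is no prostanoid receptor itself. Ptgir and Ptgfrn reached 1 FPKM in no ND library and were tested only through their CDA-HFD libraries. The count and the median are therefore no measure of the receptors as a group. The prostacyclin receptor gene Ptgir moved against its synthase, at 10.4, 7.06 and 6.91 FPKM at 7w and 10.9, 13.4 and 11.4 FPKM at 10w, while the ND libraries listed 0, 0 and 0.292 FPKM (adjusted p = 2.05e-07 by limma). Its log2 difference was 3.30, or 5.96 with a pseudocount of 0.1 and 1.54 with 5. Among 3 tested receptors for prostaglandin E2, 1 rose and 2 fell. Ptger4 averaged 30.6 ± 2.82 FPKM at 7w, 30.4 ± 10.2 FPKM at 10w and 10.3 ± 3.76 FPKM in ND (SD, n = 3 each), and Ptger1 averaged 20.4 ± 1.70 FPKM at 7w, 18.4 ± 1.99 FPKM at 10w and 44.5 ± 1.39 FPKM in ND. Ptger2, named after its values were seen, averaged 16.6 ± 1.93 FPKM at 7w, 14.7 ± 0.871 FPKM at 10w and 28.7 ± 1.54 FPKM in ND (log2 difference −0.84, SE 0.12, adjusted p = 0.000118 by limma). Pparg, a nuclear receptor that some prostaglandin D2 products bind, rose by 2.04 on the log2 scale.

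For leukotrienes, 5 genes of a list of export and breakdown rose and 2 fell among 8 tested (median 0.44). The list also holds Mgst2, a riser, and Mgst3, which was not called, and neither is an enzyme of export or breakdown. Dpep2, a dipeptidase that trims leukotriene D4 to leukotriene E4, held 145, 142 and 128 FPKM at 7w, 141, 145 and 137 FPKM at 10w and 3.47, 6.66 and 3.49 FPKM in ND (log2 difference 4.71, SE 0.15, adjusted p = 4.26e-10 by limma). The 2 other genes of this list named by size were Mgst2, a microsomal enzyme that can also form leukotriene C4 (log2 difference 1.52), and the glutamyl transferase Ggt5, which acts on leukotriene C4 (−1.12). Of 6 tested receptors for leukotrienes and resolvins 2 rose and 2 fell (median −0.19). The high-affinity leukotriene B4 receptor Ltb4r1 averaged 8.60 ± 3.62 FPKM at 7w, 13.03 ± 3.69 FPKM at 10w and 0.845 ± 0.780 FPKM in ND (SD, n = 3 each), and Gpr18 rose by 2.02 on the log2 scale. Among the remaining lists, 12/15-lipoxygenase (Alox15) rose by 2.68 and Aloxe3 fell by 1.11 of 2 tested lipoxygenases, and the epoxide hydrolase Ephx1 fell by 1.66 while Cyp2j6 rose by 1.16 of 3 tested genes of the epoxide branch. Alox15 varied between 5.25 and 34.0 FPKM in CDA-HFD libraries, and its call was lost without ND 2 (adjusted p = 0.0523 by limma). Cyp2j6 stood at 0, 0.372 and 0.215 FPKM in the ND libraries and was tested only through its CDA-HFD libraries, and its difference was 2.76 with a pseudocount of 0.1 and 0.38 with 5. Hepatocytes are rich in Ephx1, and of 11 tested hepatocyte markers 9 fell, 1 rose and 1 was not called, with a summed level over the list of 436 to 484 FPKM at 7w, 398 to 450.2 FPKM at 10w and 536 to 854 FPKM in ND. Their part in the fall of Ephx1 was not tested. The call of Aloxe3 was lost without ND 1 (0.0867) or ND 2 (0.0818), and that of Cyp2j6 without ND 1 (0.0789) or ND 3 (0.0503). No gene of the 8 lists was called between the 2 times.

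**Figure D4:**
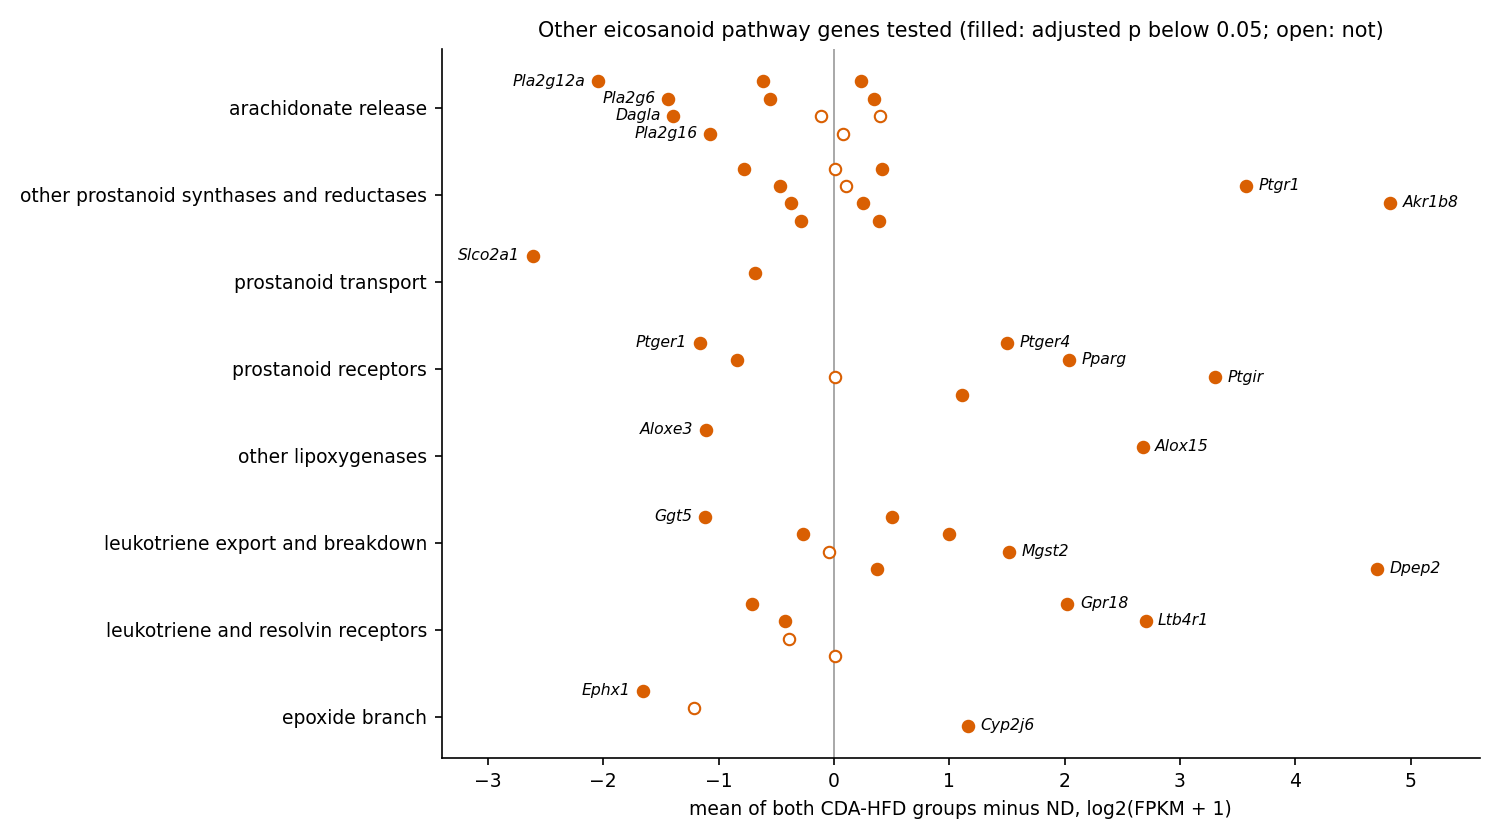
Log2 difference of both CDA-HFD groups minus ND for each tested gene of the 8 pathway lists, 1 point per gene, with filled points for an adjusted p below 0.05 by limma. Akr1b8 (4.83) and Dpep2 (4.71) lie farthest to the right and Slco2a1 (−2.61) farthest to the left.

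The genes most like a member were those with the smallest root mean square difference of centred log2(FPKM + 1) over the 9 libraries, and they are given as a description. For Ptgis these were Sdc2 (0.25), Kcnj16 (0.40) and Snora17 (0.46). For Ptgs2 they were Vegfa (0.39), Rgcc (0.43) and Atp6v0d2 (0.44), of which Vegfa, a vascular growth factor, averaged 51.3 FPKM at 7w, 32.7 FPKM at 10w and was listed at 0 in ND. Dnajb13 (0.12), Slco2a1 (0.15) and Kcng2 (0.16) lay nearest to Ltc4s. Ptgs1 was followed most closely by Rnf145 (0.07), Adpgk (0.08) and Entpd6 (0.08), and Hpgd by Fcgrt (0.05), Scap (0.05) and Lrrc25 (0.07). The nearest genes were N4bp3, Pla1a and Cass4 for Ptges (0.32 to 0.36), Hacd1, Tspyl3 and H2-Oa for Alox5 (0.33 to 0.36), Vamp3, Ndufb9 and Taldo1 for Alox5ap (0.03), and Ehd4, Fam105a and Imp4 for Lta4h (0.04). Platelets carry Ptgs1, and of 8 platelet markers 2 were tested, of which Pf4, a gene that macrophages also express, rose and Ppbp was not called, by limma on both CDA-HFD groups together, while Itga2b ranged from 0 to 1.39 FPKM.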

How the data were processed

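RNA from sorted Ly6C-low F4/80-positive liver macrophages had been amplified (SMART-Seq HT), tagmented (Nextera XT) and sequenced as single-end 75-base reads. The submitters' processing notes name HISAT2 (2.2.1), Trimmomatic (0.36.0), featureCounts (2.0.1) and the build GRCm38 (mm10), and the study's methods add removal of duplicates with Picard. The authors deposited 1 table of FPKM by gene symbol, although the methods speak of TPM. Columns sum to 444816 to 458788, so the values were treated as FPKM, and no count model was applied. Of 24776 entries 1 was incomplete and left out, and entries sharing a symbol were summed.

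All 9 libraries entered 1 limma model (3.58.1, R 4.3.3, trend and robust) of log2(FPKM + 1), a scale that understates changes of low genes, with 3 group means, 4 contrasts and two-sided Benjamini-Hochberg adjusted p over 11783 genes. The test was checked on simulated data. Nothing else was done to normalize the libraries. Depth was estimated from the steps of low values of genes with 1 transcript (59.8% to 66.8% of them within 0.1 read of a whole number, for depths searched between 2000000 and 8000000 and fragments of 200 bases). Duplicate removal keeps 1 read per start position and strand, which gives an upper limit of 323 to 367 FPKM at these depths; of 16383 long coding genes at most 4 per library exceeded it. The correction took the value as the outcome of random starts and capped it at 0.95 of the limit. Intervals of 95% are from limma, and p-values measure the spread between these libraries. The exact permutation test compared the mean log2 values of 6 CDA-HFD and 3 ND libraries.

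Gene positions are those of GENCODE M21 for GRCm38. Genes on the opposite strand also overlap Ptgs1, Hpgds and Alox5ap, and no source used here states a strand for the counting. On the same strand, Gm45540 overlaps Hpgd and the processed pseudogene Gm13400 overlaps Ptges. Pathway genes were named if called in both CDA-HFD groups together with a log2 difference of at least 1 in size, at most 4 per list by size, or called between the times; for each member the 3 nearest genes were named, and those of Hpgds are not reported here. The members and lists were chosen with earlier results of these data known. Alternatives varied the pseudocount (0.1 and 5), the filter (none, at least 5 FPKM in 3 libraries, a mean of at least 1 FPKM), the scaling (quantile, trimmed mean), the moderation, the groups in the fit, the replicate block, the upper limit, repeated symbols and the libraries included.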

Additional observations from a re-analysis of the deposited data

How the results depend on the processing

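The number of members called stayed between 7 and 9 at 7w, 6 and 8 at 10w and 7 and 9 for both CDA-HFD groups together, and at 0 between the times by limma (4 at an unadjusted p below 0.05 in the main analysis), under all alternatives run. Over all genes, 2089 to 2826 rose and 2195 to 2743 fell at 7w under these alternatives. In the main analysis 43.7% of all tested genes were called at 7w, 39.9% at 10w and 47% for both groups together. Ptgis, Ptgs1, Ptgs2, Hpgd, Ltc4s and Lta4h kept direction and call against ND in all alternatives. Calls of Ptges and Alox5ap for both groups together, and of Hpgds at 10w, were lost with no filter (adjusted p = 0.0584, 0.0583 and 0.0793 by limma) and without trend and robust (0.0638, 0.236 and 0.0905). With quantile normalization the call of Ptges for both groups together was lost (0.0536) and Alox5 passed at 10w (0.0495), and with a pseudocount of 0.1 Ptges passed at 7w (0.0261) and at 10w (0.0191), whereas with a pseudocount of 5 its call for both groups together was lost (0.0853).

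Differences near 0 that were not called changed sign. Between 10w and 7w, Ptges gave 0.29 with a pseudocount of 0.1 and 0.0086 with quantile normalization, where Hpgd gave 0.023. With 1 library left out, the difference between 10w and 7w ran from −0.44 to 0.63 for Ptges, −0.11 to 0.0087 for Hpgd, −0.55 to 0.23 for Ptgis and −0.15 to 0.39 for Ltc4s, and that of Alox5 at 7w from −0.30 to 0.57. The two-sided exact permutation test of 6 against 3 libraries lost Ptges with a pseudocount of 5 (difference 0.36, p = 0.0595) and gained Alox5ap with trimmed-mean scaling (0.14, p = 0.0476) and after correcting for the upper limit (0.19, p = 0.0119). With 1 library left out its difference was 0.57 to 0.75 for Hpgds (exact p = 0.0179 to 0.0714) and 0.89 to 1.32 for Ptges (exact p up to 0.107).

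Libraries with the same replicate number did not deviate together (correlations −0.06 to 0.09), and several libraries were closer to one of another number, so the numbers pair no samples. With the replicate block, Alox5ap lost its call for both groups together (adjusted p = 0.0517 by limma), which left 8 members called in place of 9, and no other call of a member changed. Ptges, with at most 2.00 estimated reads in an ND library, and Ptgs2 there are limited by depth.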
